A study of Rattus with 18 samples.

Results

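Glomeruli of rats killed 5 days after an injection of anti-Thy1 antibody were compared with glomeruli of rats killed 1 day after it. The comparison rests on 6 of the 18 one-colour arrays of the series, chosen by their titles: 3 of day 5 and 3 of day 1, all read on the first scan day. It asks which of the genes lost or gained on day 1 had returned by day 5 and which had not. The animals were SD (Sprague-Dawley) rats of 200 g, of which 30 received anti-Thy1 antibody and 6 received saline. Day 5 and day 1 rats thus shared the antibody and differed in the day of killing. The saline rats, called day 0, gave 3 further arrays of the same scan day and set the level against which a loss or a gain was counted. Glomeruli, 3 from each of the 6 rats of a time point, went into TRIzol, and linear amplification of 1.65 µg of RNA gave the cyanine 3 target. How the rats were divided over the arrays is not stated in the labels, so the p-values measure only the spread between arrays, which may be technical.

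Thy1 is a cell surface glycoprotein that mesangial cells carry in the rat glomerulus. Antibody against it binds these cells and, with complement, kills many of them within the first day. Leukocytes then enter the tuft, surviving mesangial cells migrate and divide, and matrix accumulates before the lesion resolves. Mesangial cells are the pericytes of the glomerular capillaries: they are recruited by PDGF-B through its receptor Pdgfrb, adhere through integrins and contract in response to angiotensin II. Because a whole glomerulus was measured, fewer cells of a type and less RNA per cell cannot be told apart.

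A level below is the log2 intensity of a gene's brightest probe minus the log2 of that array's 75th percentile, so that 0 is the 75th percentile and a difference of 1 is a 2-fold change. Differences carry the standard error (SE) of a limma fit over all 18 arrays, and p-values are its Benjamini-Hochberg adjusted values over 23183 genes and transcripts. "Called" means an adjusted p under 0.05, with n = 3 arrays in each day. The 75th percentile signal was 273.2, 251.9 and 336.1 on the day 5 arrays (replicates 2, 4 and 5) and 328.6, 319.5 and 253.3 on the day 1 arrays (replicates 1, 4 and 5). The share of probes well above background ranged from 63.6 to 67.4% over day 5 arrays and from 55.2 to 65.9% over day 1 arrays, lowest in day 1 replicate 4. Replicate 5 of day 5 stood apart from replicates 2 and 4: it lay farthest from the day 5 median in 48.98% of genes. Among the day 0 arrays, replicate 4 stood apart. It correlated at 0.952 and 0.958 with replicates 2 and 5, which correlated at 0.991 with each other. The 3 day 5 arrays were on slide 3 and the day 1 arrays on slides 1 and 2, so no slide held both days and there is no within-slide value of the difference. A fit with slide as a block links them only through day 3 arrays.

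Of the 23183 genes and transcripts, 28 were called between day 5 and day 1, which is 0.121%. On day 5, 21 were higher (0.0906%) and 7 were lower (0.0302%). All 28 had 3 day 5 arrays that did not overlap the 3 day 1 arrays. Over all genes, the 3 day 5 arrays lay all above the day 1 arrays in 8.22% and all below in 7.13%. At an unadjusted p under 0.05 the count was 2067 genes. The 28 are 18 genes with a current symbol, described below, and 10 transcripts without one. Of the 21 higher on day 5, 19 had been called lower on day 1 than on day 0. The other 2, Fmod and Angpt2, had not been called on day 1. The calls were fragile: none of the 28 changed sign in any of the 24 other ways of processing the data, but 4 to 57 genes were called when 1 of the 9 arrays was left out, the lowest without day 1 replicate 4. With slide as a block 27 genes were called, of which 1, Kcnj8, was among the 28.

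The 60-base probes of 6 genes and transcripts are printed below as the scanner files give them, with rat rn4 coordinates and strand. Tnmd, Pdgfrb and Agtr1b are shown as called returns of day 1 losses. Agtr1a and Thy1 were not called between the days: Agtr1a is shown because it is the close relative from which the Agtr1b signal has to be told apart, and Thy1 because its protein is the target of the antibody. TC595334 is a called transcript with no symbol in the files, shown because its sequence is its main identity.
Tnmd (chrX:121409347-121409406, plus strand): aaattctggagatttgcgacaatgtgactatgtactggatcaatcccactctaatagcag
Pdgfrb (chr18:57053405-57053464, plus strand): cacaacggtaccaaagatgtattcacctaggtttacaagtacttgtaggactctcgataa
Agtr1b (chr2:105504546-105504605, minus strand): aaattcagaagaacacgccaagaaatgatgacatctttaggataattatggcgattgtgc
Agtr1a (chr17:40629499-40629558, minus strand): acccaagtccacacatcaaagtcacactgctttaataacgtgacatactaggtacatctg
Thy1 (chr8:47031186-47031646, plus strand, an interval longer than the probe): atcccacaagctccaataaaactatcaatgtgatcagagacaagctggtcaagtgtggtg
TC595334 (chr2:142462939-142462998, minus strand): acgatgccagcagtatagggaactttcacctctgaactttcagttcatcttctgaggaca

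Mesangial markers stood higher on day 5 than on day 1 more often than they stood lower, although 1 of them passed the test. Of 18 listed mesangial and pericyte genes, 17 had a passing probe. Of these, 12 had all 3 day 5 arrays above the day 1 arrays and 0 had them all below, beside 8.22% and 7.13% of all genes. The median day 5 minus day 1 difference over the 17 was 1.32, against -0.019 over all genes. The mean level of the list was 1.13, 0.99 and 1.85 on day 5 arrays, against 0.33, -0.15 and -0.11 on day 1 arrays. On day 0 arrays it was 1.24, 0.75 and 0.80. Every day 5 array thus lay above every day 1 array, and replicates 2 and 4 of day 5 lay inside the day 0 range. Against day 0, 7 of the 17 were called lower on day 1 and 1 higher, beside 20.7% of all genes lower and 19.2% higher. On day 5, 1 was called lower than on day 0 and 2 higher, beside 23.4% and 20.9% of all genes. Scaled to the array median, 0 were lower on day 5 and 9 higher, beside 3062 and 9581 of all 23183 genes. Scaled to reference genes, 2 were lower on day 5 and 1 higher, beside 8494 and 1547 of all genes. With that scaling 11 were lower on day 1, beside 8185 of all genes. Without day 5 replicate 5 the median difference between day 5 and day 1 was 1.01.

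Pdgfrb, the PDGF-B receptor, was the list member called between the days. Its level was 1.67, 1.22 and 2.5 on day 5 arrays, against 0.25, -0.72 and -0.81 on day 1 arrays. Day 0 arrays read 1.89, 0.91 and 1.17, a range that holds 2 of the 3 day 5 values and none of the day 1 values. The day 5 level was 4.67-fold the day 1 level (log2 difference 2.22 ± 0.39 SE, adjusted p = 0.043). Against day 0, Pdgfrb was lower by a log2 difference of -1.75 on day 1 (adjusted p = 0.00518) and differed by 0.47 on day 5 (adjusted p = 0.332). It was called in 9 of 24 alternatives.

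Thy1 itself did not pass the test between the days. It read -1.23, -1.18 and 0.42 on day 5 arrays, against -3.15, -4.14 and -2.73 on day 1 arrays, where 2 of 3 arrays were well above background. The day 0 arrays read -0.02, 0.46 and -0.70. The day 5 arrays lay all above the day 1 arrays, and the difference was 2.67 ± 0.59 (adjusted p = 0.108). Against day 0, Thy1 fell on day 1 by 3.25 on the log2 scale (adjusted p = 0.0026). On day 5 its difference from day 0 was -0.58 (adjusted p = 0.436), with a 95% interval of -1.83 to 0.68, which does not show that it had fully returned.

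Itga8, the integrin alpha 8 chain by which mesangial cells hold their matrix, was the mesangial loss that was still called. Its level was -2.08, -2.54 and -2.39 on day 5 arrays, against -4.09, -5.85 and -4.14 on day 1 arrays, with no overlap. Day 0 arrays read -1.04, -0.23 and -1.84, above both other days. The day 5 minus day 1 difference was 2.36 ± 0.48 (adjusted p = 0.073). It was lower than on day 0 on day 1 (log2 difference -3.66, adjusted p = 0.000869) and on day 5 (-1.30, adjusted p = 0.0384). Scaled to the array median or by quantiles, the day 5 difference from day 0 was no longer called.

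Several other pericyte genes had positive differences that missed the threshold. Sfrp2, a secreted modulator of Wnt signalling, differed by 1.52 between day 5 and day 1 (adjusted p = 0.156). Rgs5, a regulator of G protein signalling typical of pericytes, differed by 1.32 (adjusted p = 0.119). Gata3, a transcription factor of mesangial cells, differed by 1.33 (adjusted p = 0.207). Serpine2, a protease inhibitor of the mesangium, differed by 2.80 ± 0.52 (adjusted p = 0.0539). Itga1, the collagen-binding integrin alpha 1 chain, went another way, with log2 differences from day 0 of 1.09 on day 1 and 1.43 on day 5, and 0.33 between day 5 and day 1.

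Pdgfrb was the only listed gene among the calls, so the other called genes belong to no list. Of 12 listed contractile genes, 9 had a passing probe, 0 were called between the days and the median difference was 0.11. Agtr1b, the type 1b angiotensin II receptor, read -2.32, -2.34 and -1.30 on day 5 arrays. On day 1 arrays it read -4.39, -5.52 and -4.97, and was well above background on 1 of 3. The day 0 arrays, at -2.15, -2.19 and -3.0, lay in the day 5 range in 2 cases and under it in 1. It was higher on day 5 than on day 1 by a log2 difference of 2.97 ± 0.44 (adjusted p = 0.0241), which likewise rests partly on dim day 1 signals, and it was not called against day 0 (0.46, adjusted p = 0.409). Agtr1a, the gene of the 1a receptor, read 2.89, 2.75 and 2.78 on day 5 arrays, against 2.19, 1.80 and 1.43 on day 1 arrays. The 3 day 5 values lay above the day 1 values, with a difference of 1.00 ± 0.23 that was not called (adjusted p = 0.132). The 2 probes, printed above, shared at most 20 identical bases in an ungapped alignment, and their longest shared run was 6 bases. The difference between the receptors' responses was not tested.

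**Figure D1:**
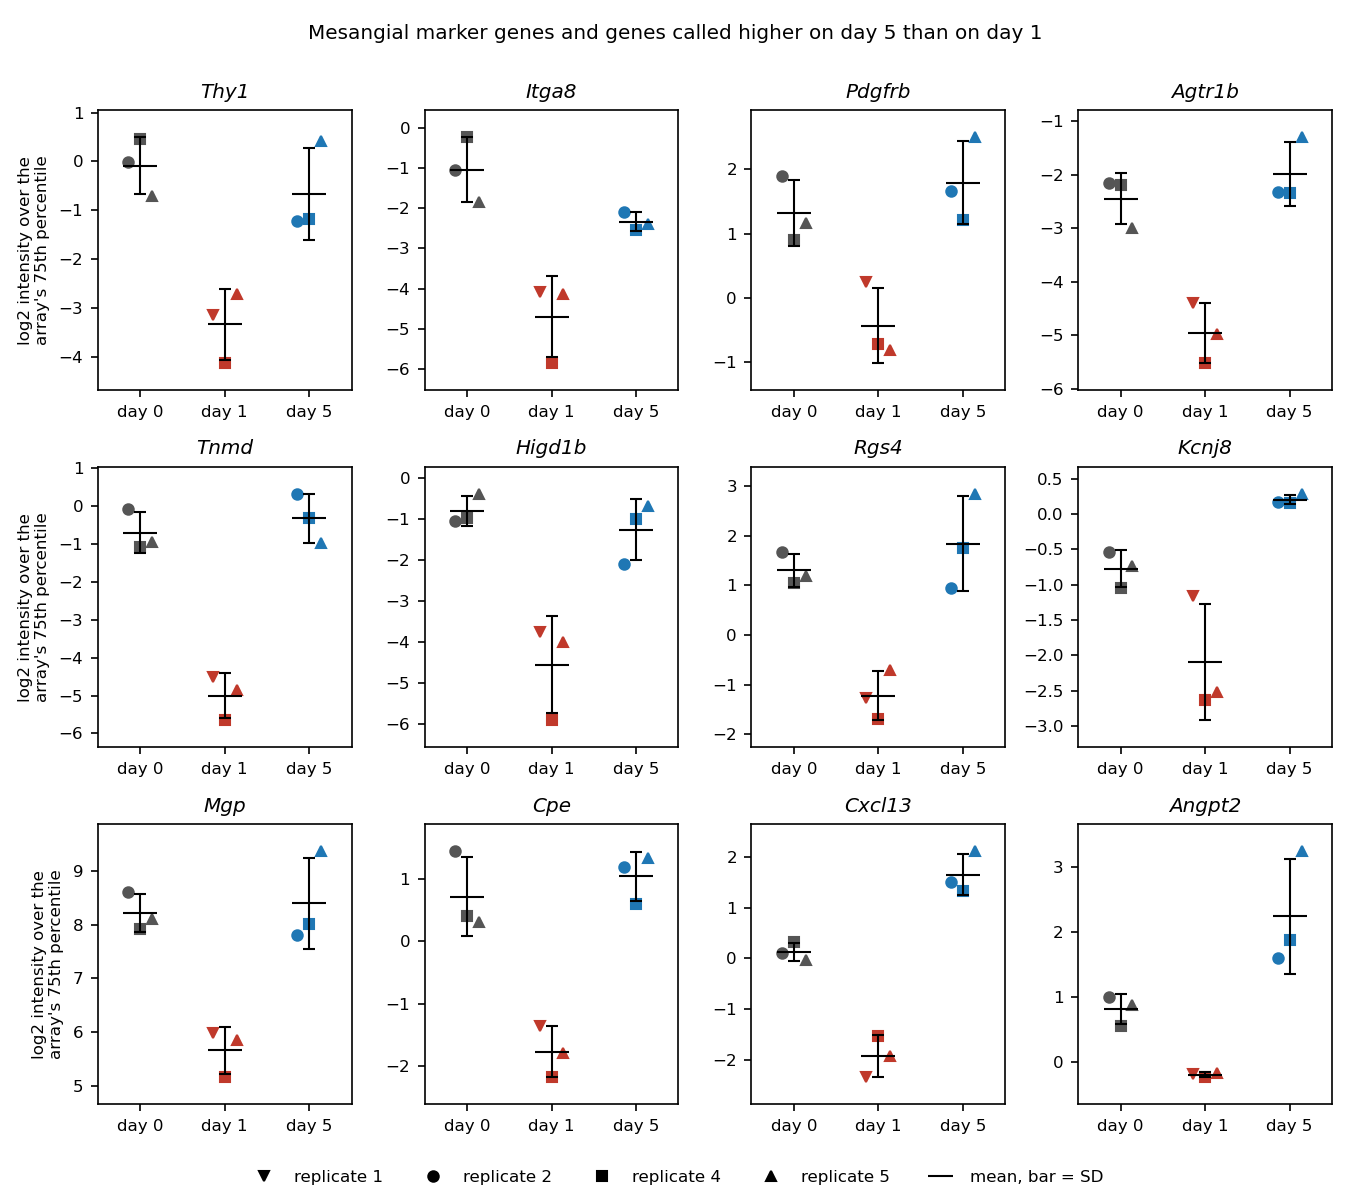
Levels of 12 genes on day 0, day 1 and day 5 (x axis); the y axis is the log2 intensity over the array's 75th percentile, each point is 1 array, its shape is the replicate number, and bars give mean and SD of 3 arrays. In all 12 panels the 3 day 5 arrays lie above the 3 day 1 arrays; Thy1 and Itga8 missed the test between the days (adjusted p = 0.108 and 0.073), and the other 10 were called.

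Rgs4, which speeds the switching-off of Gq and Gi signals such as those of angiotensin receptors, was also called. It read 0.95, 1.75 and 2.84 on day 5 arrays, against -1.27, -1.70 and -0.71 on day 1 arrays. The day 0 values of 1.68, 1.04 and 1.19 fell within the day 5 range. The log2 difference was 3.07 ± 0.45 (adjusted p = 0.0241), and its 2 probes gave 1.83 and 3.07. Kcnj8 encodes the Kir6.1 pore of the ATP-sensitive potassium channel of vascular smooth muscle and pericytes. It read 0.17, 0.16 and 0.28 on day 5 arrays, against -1.15, -2.63 and -2.51 on day 1 arrays and -0.53, -1.05 and -0.74 on day 0 arrays. The day 5 arrays thus lay above both other days. Kcnj8 differed by 2.30 ± 0.39 between day 5 and day 1 (adjusted p = 0.0422), and with slide as a block by 3.83 (adjusted p = 0.0159). Its difference from day 0 on day 5 was 0.98 (adjusted p = 0.0557).

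The gene with the largest call was Tnmd, tenomodulin, a membrane glycoprotein of tendon known to restrain vessel growth. It read 0.31, -0.32 and -0.97 on day 5 arrays, against -4.51, -5.65 and -4.84 on day 1 arrays, where 1 of 3 arrays was well above background. On day 0 arrays it read -0.08, -1.08 and -0.95. The day 5 and day 0 values overlapped, and the day 1 values lay far below both. The log2 difference between day 5 and day 1 was 4.67 ± 0.48 (adjusted p = 0.00187), its size resting partly on day 1 signals that were not well above background, and the difference from day 0 on day 5 was 0.38, with an interval of -0.66 to 1.41. Tnmd was called in 20 of 23 alternatives, with differences of 1.61 to 5.00. With slide as a block it was not called (3.87, adjusted p = 0.145).

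Higd1b, a small membrane protein gene that marks pericytes in the mouse, read -2.10, -1.0 and -0.67 on day 5 arrays. Its day 1 values were -3.74, -5.90 and -4.0, with 2 of 3 arrays well above background, and its day 0 values were -1.05, -0.96 and -0.39. The day 5 values overlapped those of day 0 and lay above all day 1 values. The difference between day 5 and day 1 was 3.29 ± 0.54 (adjusted p = 0.0386). Cpe, the carboxypeptidase that trims prohormones, read 1.18, 0.60 and 1.33 on day 5 arrays, against -1.35, -2.17 and -1.79 on day 1 arrays. Its day 0 values, 1.44, 0.40 and 0.31, spanned the day 5 values. Cpe differed by 2.81 ± 0.38 between the days (adjusted p = 0.0126) and was called in 19 of 24 alternatives.

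Among secreted and matrix proteins, Mgp, the matrix Gla protein that restrains calcification of vessel walls, was called. It read 7.81, 8.02 and 9.37 on day 5 arrays, against 5.98, 5.16 and 5.85 on day 1 arrays. The day 0 values were 8.61, 7.93 and 8.10. Day 5 was 6.65-fold day 1 (log2 difference 2.73 ± 0.44, adjusted p = 0.0369), and differed from day 0 by 0.19 (adjusted p = 0.747). Fmod, fibromodulin, a small proteoglycan that binds collagen, read 0.59, 1.22 and 1.92 on day 5 arrays, against -1.77, -0.39 and -1.10 on day 1 arrays, a difference of 2.33 ± 0.42 (adjusted p = 0.0494). Its day 0 values of -0.29, -0.02 and 0.03 lay between those of the other days.

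A second pattern among the called genes was a day 5 level above day 0. Of the 19 day 1 losses called as moved back, 5 were called higher than day 0 on day 5. Of all 21 genes and transcripts called higher, 13 were not called against day 0. Angpt2, angiopoietin 2, a ligand of the endothelial receptor Tek, read 1.60, 1.88 and 3.25 on day 5 arrays, against -0.19, -0.24 and -0.17 on day 1 arrays. On day 0 arrays it read 0.99, 0.55 and 0.88, so the 3 days did not overlap. It was higher on day 5 than on day 1 by 2.44 ± 0.43 (adjusted p = 0.043) and than on day 0 by 1.44 (adjusted p = 0.0161). When the arrays were scaled to 12 reference genes, the call against day 0 was lost. Cxcl13, the chemokine that attracts B cells, read 1.52, 1.33 and 2.12 on day 5 arrays, against -2.35, -1.52 and -1.92 on day 1 arrays and 0.10, 0.33 and -0.02 on day 0 arrays. Its days also stood apart, with a day 5 minus day 1 difference of 3.59 ± 0.63 (adjusted p = 0.043). The Cxcl13 call was lost in each of the 9 leave-one-out fits and held in 8 of 24 alternatives. Its difference from day 0 on day 5 was 1.52 (adjusted p = 0.0598).

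The remaining named genes among the 21, like Fmod and Kcnj8, were chosen for naming after their values were seen, because they were called. Sncg, gamma-synuclein, differed by 2.02 (adjusted p = 0.043). Egflam, a matrix protein also called pikachurin, differed by 1.54 (adjusted p = 0.0422). Gdf11, a secreted ligand of the TGF-beta family, differed by 1.23, and Rnf180, a ubiquitin ligase, by 1.00 (adjusted p = 0.0422 for both). Against day 0 on day 5, Egflam differed by 0.35 to 1.18 over the 4 scalings and Rnf180 by 0.04 to 0.91, each called under 3. Sncg differed by 0.54 to 1.38, called under 2, and Gdf11 by -0.03 to 0.80, called under 1. The transcript TC595334 read -0.21, -0.75 and -0.40 on day 5 arrays, against -2.02, -2.27 and -2.35 on day 1 arrays, a difference of 1.76 ± 0.23 (adjusted p = 0.0126). Its day 0 values, 0.31, 0.53 and -0.09, lay above all day 5 values, and it was the 1 returning loss still called lower than day 0 on day 5 (-0.70, adjusted p = 0.0243).

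**Figure D2:**
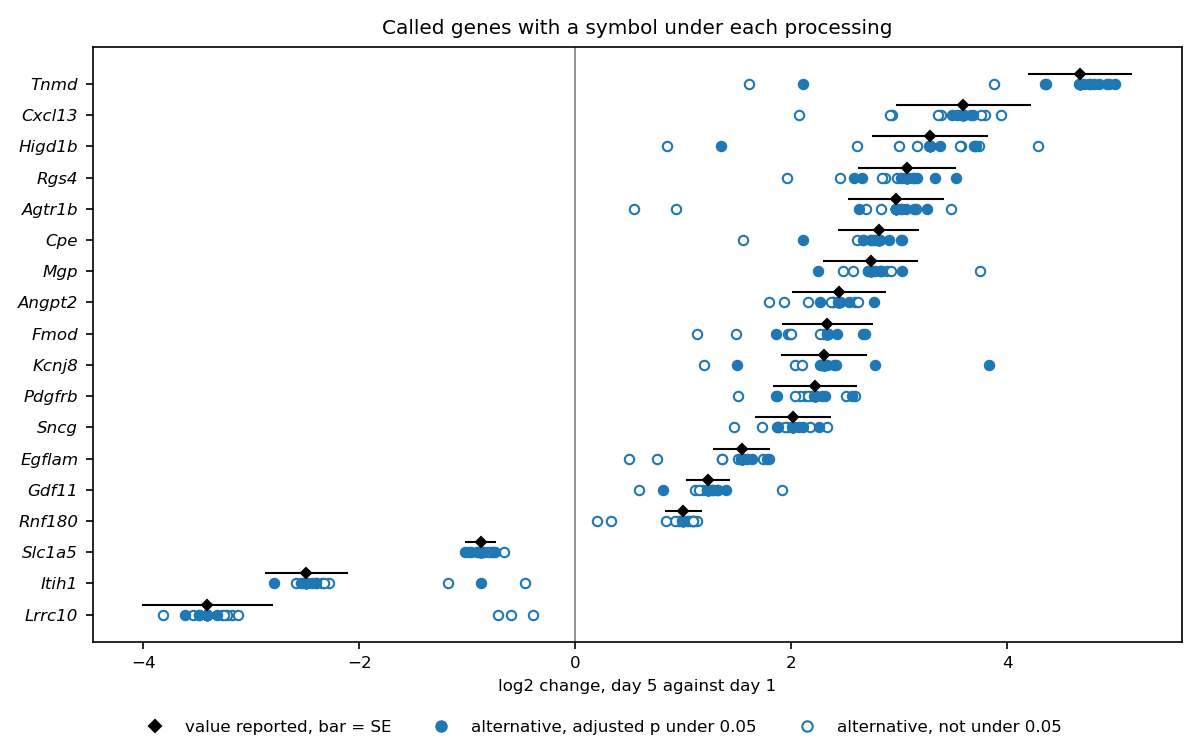
Day 5 minus day 1 difference (log2, x axis) of the 18 called genes with a symbol; the diamond with its bar is the reported value and SE, each circle is 1 alternative processing, filled where the adjusted p was under 0.05 and open where it was not. Points keep the side of 0 on which the diamond lies, and calls range from 20 of 23 alternatives for Tnmd to 6 of 24 for Fmod.

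Of the 7 genes and transcripts called lower on day 5 than on day 1, 5 were day 1 gains that were not called against day 0 on day 5. The 3 with a symbol were Lrrc10, Itih1 and Slc1a5. Lrrc10, a leucine-rich repeat protein known from heart muscle, was not well above background on any day 5 or day 0 array and read -2.41, -2.50 and -3.69 on day 1 arrays. Its measured day 5 values were -6.84, -6.12 and -5.86, and those of day 0 were -5.96, -6.78 and -6.89. It was at least 4.46-fold lower on day 5 than on day 1, a bound taken from the lowest signals that counted as above background (adjusted p = 0.043). Itih1, a heavy chain of the inter-alpha-trypsin inhibitor that stabilizes hyaluronan, read -4.40, -4.48 and -4.61 on day 5 arrays, against -1.59, -1.82 and -2.60 on day 1 arrays. On day 0 arrays it read -3.96, -4.91 and -4.49, so day 5 and day 0 overlapped. The difference was -2.49 ± 0.39 (adjusted p = 0.0293), and -1.18 with slide as a block.

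Slc1a5, a carrier of glutamine and other neutral amino acids, read 0.48, 0.67 and 1.00 on day 5 arrays, against 1.42, 1.73 and 1.63 on day 1 arrays. Its day 0 values of 0.92, 0.80 and 0.79 lay inside the day 5 range. The day 5 minus day 1 difference was -0.88 ± 0.15 (adjusted p = 0.0422). BM299612 and ENSRNOT00000009094, named after their values were seen, are identifiers without a symbol in the files and differed by -2.01 and -2.15 (adjusted p = 0.0422 and 0.0241).

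Of the macrophage markers, none was called between the days. Of 22 listed, 20 had a passing probe, with a median difference of -1.19. Of these, 3 had all 3 day 5 arrays below day 1 and 0 above, beside 7.13% and 8.22% of all genes. On day 1, 13 of the 20 were called higher than on day 0 and 0 lower, beside 19.2% and 20.7% of all genes. On day 5, 2 were higher and 0 lower, beside 20.9% and 23.4%. The day 5 count higher was 8 scaled to the array median and 1 scaled to reference genes, beside 9581 and 1547 of all 23183 genes. The mean level of the list was 0.09, -0.12 and 2.38 on day 5 arrays, against 2.03, 2.16 and 2.03 on day 1 arrays. On day 0 arrays it was 0.30, -0.21 and -0.68. Replicates 2 and 4 of day 5 lay within the day 0 range, while replicate 5 lay above the day 1 arrays. Cd68, a lysosomal protein of macrophages, showed the same split, with 0.86, 0.32 and 2.54 on day 5 arrays, against 2.89, 3.17 and 2.42 on day 1 arrays and 0.79, 0.20 and 0.06 on day 0 arrays. Its difference was -1.59 between day 5 and day 1 (adjusted p = 0.381).

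Gpnmb, a glycoprotein of lipid-laden and phagocytic macrophages, had the largest difference of the 20. It read -2.61, -2.66 and 0.24 on day 5 arrays, against 2.59, 2.84 and 2.39 on day 1 arrays, with no overlap. Day 0 arrays read -2.76, -3.72 and -4.01. The difference was -4.28 ± 0.90 (adjusted p = 0.0866), and without day 5 replicate 5 it was -5.24 and called (adjusted p = 0.0392). Without that array 36 genes were called lower on day 5, against 7 with it, and 21 higher, and 33 day 1 gains were then called as moved back, against 5 with it. C3ar1, the receptor for complement fragment C3a, was among them, at -2.51 without the array (adjusted p = 0.0158) and -2.0 with it (adjusted p = 0.0572).

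Monocyte-attracting chemokines also missed the threshold with all arrays. Ccl2 read 0.53, 1.07 and 2.04 on day 5 arrays, against 3.1, 3.40 and 4.48 on day 1 arrays. Day 0 arrays read -0.24, -0.96 and -0.29, so Ccl2 on day 5 lay between the other days. It differed by -2.45 ± 0.47 between day 5 and day 1 (adjusted p = 0.0572), by -2.86 without day 5 replicate 5 (adjusted p = 0.0392), and was still called higher than on day 0 on day 5 (1.71, adjusted p = 0.0103). Ccl7, a related monocyte chemokine, read -3.25, -2.70 and -2.48 on day 5 arrays, against 0.24, -0.13 and 1.56 on day 1 arrays and -3.89, -4.61 and -3.94 on day 0 arrays. Its difference was -3.36 ± 0.62 (adjusted p = 0.052).

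Other inflammatory genes were likewise not called between the days. Il1b, the cytokine interleukin 1 beta, read 0.64, -0.61 and 0.05 on day 5 arrays, against 1.43, 1.64 and 1.16 on day 1 arrays, and was still higher than on day 0 on day 5 (1.94, adjusted p = 0.00109). Sele, the endothelial selectin that captures leukocytes, read -3.05, -3.77 and -2.63 on day 5 arrays, against -0.69, 0.48 and -1.86 on day 1 arrays, and was not well above background on any day 0 array. It was at least 15.4-fold higher on day 1 than on day 0, and differed by -2.46 between day 5 and day 1 (adjusted p = 0.21). Of 22 listed chemokine, cytokine and adhesion genes, 18 had a passing probe, with a median difference of -0.56. Of these, 7 had all 3 day 5 arrays below day 1 and 0 above, beside 7.13% and 8.22% of all genes. Against day 0, 13 were higher and 1 lower on day 1, beside 19.2% and 20.7% of all genes. On day 5, 8 were higher and 1 lower, beside 20.9% and 23.4%. The day 5 count higher was 15 scaled to the median and 4 scaled to reference genes, beside 9581 and 1547 of all 23183 genes.

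The few neutrophil markers with a passing probe were high on both days. Of 12 listed, 4 had a passing probe, and these 4 were called higher than on day 0 on both days. Their medians were 2.26 on day 5 and 2.11 on day 1. A marker dim on day 0 could pass only through another day on which it was bright, so the filter favours such a count. Over all genes 20.9% were higher on day 5 and 19.2% on day 1. S100a9, a calcium-binding protein that neutrophils hold in bulk, read 2.56, 1.46 and 1.56 on day 5 arrays, against 1.49, 1.25 and 1.46 on day 1 arrays and -0.15, -1.57 and -0.46 on day 0 arrays. Its difference between day 5 and day 1 was 0.46 (adjusted p = 0.9). Cxcl10, an interferon-induced chemokine, was likewise higher than on day 0 on both days (1.91 on day 5, 1.75 on day 1) and differed by 0.16 between them (adjusted p = 0.961).

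**Figure D3:**
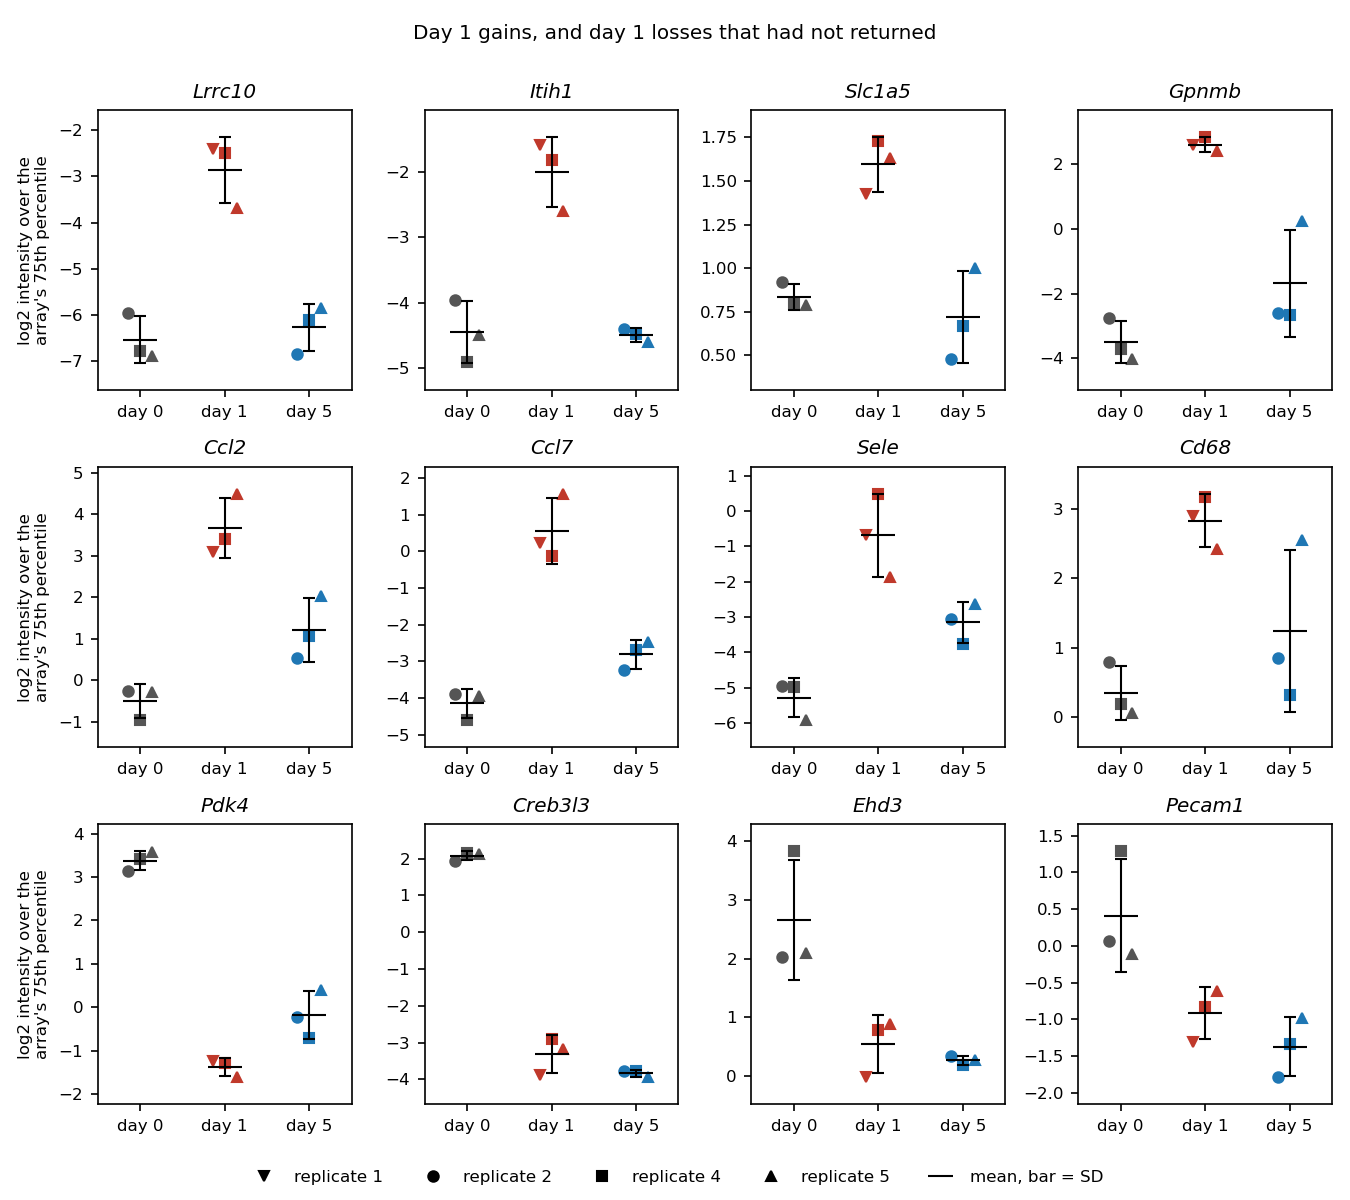
Levels of 12 genes on day 0, day 1 and day 5 (x axis); the y axis is the log2 intensity over the array's 75th percentile, each point is 1 array, its shape is the replicate number, and bars give mean and SD of 3 arrays. Lrrc10, Itih1 and Slc1a5 lie on day 5 near day 0, Gpnmb and Cd68 have day 5 replicate 5 above replicates 2 and 4, and Pdk4, Creb3l3, Ehd3 and Pecam1 lie on day 5 nearer to day 1 than to day 0.

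Many genes of DNA replication were called above control levels on both days. Of 29 listed, 28 had a passing probe. Of these, 15 were higher than on day 0 on day 5 and 19 on day 1, beside 20.9% and 19.2% of all genes. On either day 0 were lower. Scaled to reference genes, 7 were higher on day 5 and 15 on day 1, beside 1547 and 1314 of all 23183 genes. None was called between the days, and the median difference was -0.34. The mean level of the list was -1.91, -1.30 and -0.24 on day 5 arrays, against -0.65, -0.53 and -0.64 on day 1 arrays. On day 0 arrays it was -2.03, -2.06 and -2.19, close to the value of day 5 replicate 2. Mcm5, a subunit of the replicative helicase, read -5.43, -4.33 and -2.77 on day 5 arrays, against -2.83, -2.28 and -2.73 on day 1 arrays (difference -1.56, adjusted p = 0.524). For the 25 mitosis genes with a passing probe, of 28 listed, the sign of the median rested on 1 array: it was 0.44 with day 5 replicate 5 and -0.45 without it. Mki67, the Ki-67 proliferation antigen, read -1.48, -0.66 and 1.63 on day 5 arrays, against 0.57, 0.15 and 0.15 on day 1 arrays. Its day 5 values lay on both sides of the day 1 values.

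Matrix and contractile genes also varied among the day 5 arrays. Of 31 interstitial matrix genes, 28 had a passing probe, and their mean level was 0.38, 0.56 and 1.98 on day 5 arrays, against 0.56, 0.32 and 0.53 on day 1 arrays. Their median difference was 0.35, and 0.03 without day 5 replicate 5. Col3a1, a fibrillar collagen chain, read -0.18, 0.72 and 3.92 on day 5 arrays, against -0.03, -1.20 and -1.64 on day 1 arrays (difference 2.44, adjusted p = 0.335). Tagln, the actin-bundling protein transgelin of contractile cells, read 0.80, 1.45 and 4.75 on day 5 arrays, against 2.91, 2.56 and 3.29 on day 1 arrays and -0.23, -0.53 and -0.38 on day 0 arrays. On both antibody days Tagln lay above all day 0 arrays. Grem1, an antagonist of bone morphogenetic proteins, read 1.69, 1.31 and 1.53 on day 5 arrays, against 0.77, 0.59 and -1.31 on day 1 arrays and -0.75, -2.21 and -0.98 on day 0 arrays. It was higher than on day 0 by 2.82 on day 5 (adjusted p = 0.0011), and its difference of 1.49 between day 5 and day 1 was not called (adjusted p = 0.319).

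**Figure D4:**
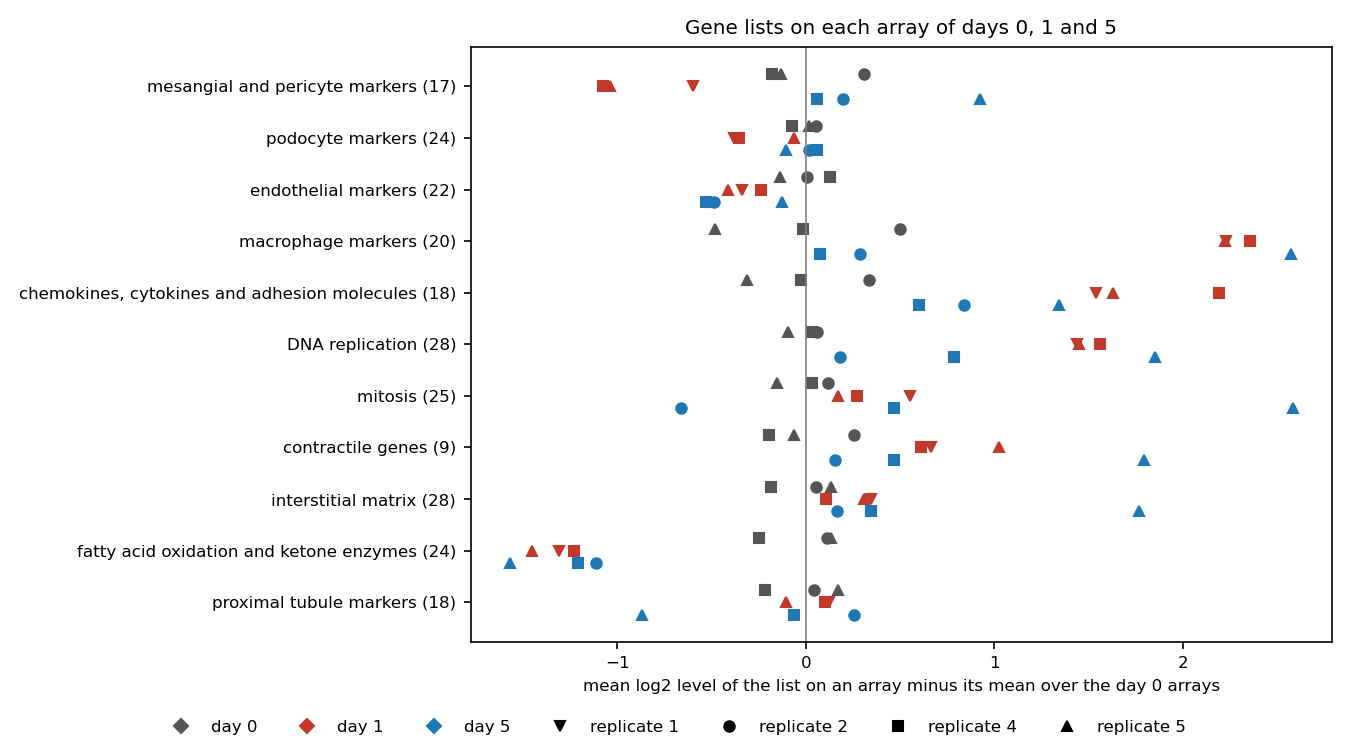
Mean log2 level of 11 gene lists on each day 0, day 1 and day 5 array, minus the mean of the day 0 arrays; each point is 1 array and its shape is the replicate number. Mesangial markers lie lower on day 1 than on day 5, fatty acid genes lie low on both days, and day 5 replicate 5 lies above the other day 5 arrays for macrophage, mitosis and matrix genes.

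Among genes of fatty acid oxidation and related pathways, none of the 9 day 1 losses was called as returned, where 19 of 4810 were over all genes. Of 24 listed, 24 had a passing probe, and 9 were called lower than on day 0 on both day 5 and day 1, the same genes on both days, with 0 higher. Over all genes 23.4% were lower on day 5 and 20.7% on day 1. Scaled to reference genes, 17 were lower on day 5 and 14 on day 1, beside 8494 and 8185 of all 23183 genes. The median difference between day 5 and day 1 was 0, with 0 called. The mean level of the list was 2.72, 2.63 and 2.27 on day 5 arrays, against 2.53, 2.61 and 2.39 on day 1 arrays, and 3.95, 3.59 and 3.97 on day 0 arrays.

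Creb3l3, a transcription factor of lipid metabolism in liver and gut, read -3.78, -3.77 and -3.95 on day 5 arrays, against -3.89, -2.90 and -3.17 on day 1 arrays and 1.94, 2.17 and 2.14 on day 0 arrays. The difference between day 5 and day 1 was -0.51 (adjusted p = 0.922), while those from day 0 were -5.92 on day 5 and -5.41 on day 1. Pdk4, the kinase that switches off pyruvate dehydrogenase, read -0.23, -0.71 and 0.39 on day 5 arrays, against -1.23, -1.28 and -1.61 on day 1 arrays and 3.14, 3.41 and 3.58 on day 0 arrays. Its day 5 arrays lay above its day 1 arrays, but the difference of 1.19 was not called (adjusted p = 0.784). Angptl4, an inhibitor of lipoprotein lipase, was lower than on day 0 by -2.89 on day 5 and -3.49 on day 1. Proximal tubule markers, which report tubule fragments in a glomerular sample, had a median difference of -0.3 between the days, with 0 of 18 called. The part of tubule fragments in these losses was not tested.

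Of the 5 endothelial markers lost on day 1, 4 were still lower than day 0 on day 5, a share near the 85.6% over all day 1 losses. Ehd3, a membrane-trafficking protein of the glomerular endothelium, read 0.35, 0.19 and 0.28 on day 5 arrays, against -0.02, 0.78 and 0.89 on day 1 arrays and 2.04, 3.83 and 2.10 on day 0 arrays. Day 5 and day 1 overlapped and both lay under day 0. Its differences from day 0 were -2.39 on day 5 (adjusted p = 0.000971) and -2.11 on day 1 (adjusted p = 0.00275). Pecam1, the adhesion molecule CD31 of endothelial junctions, read -1.79, -1.33 and -0.99 on day 5 arrays, against -1.30, -0.83 and -0.61 on day 1 arrays and 0.06, 1.29 and -0.12 on day 0 arrays. Both genes kept their calls against day 0 under the 3 other scalings. In both, day 0 replicate 4, the control array that stood apart, read highest. Their losses without that array are not given here. Of 22 endothelial markers with a passing probe (24 listed), 4 were lower than on day 0 on day 5 and 5 on day 1. Over all genes 23.4% were lower on day 5 and 20.7% on day 1, so these counts lay near the general share. Scaled to reference genes, 9 were lower on day 5 and 10 on day 1, beside 8494 and 8185 of all 23183 genes. Kdr, the main VEGF receptor, differed by 0.05 between the days (adjusted p = 0.981).

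Podocyte markers differed among themselves. Nphs1, nephrin of the slit diaphragm, read 5.32, 5.03 and 4.70 on day 5 arrays, against 4.44, 4.54 and 4.61 on day 1 arrays and 5.11, 4.34 and 5.07 on day 0 arrays (difference between day 5 and day 1 0.49, adjusted p = 0.506). Synpo, which organizes actin in the foot processes, read -0.01, 0.46 and -0.30 on day 5 arrays, against -0.31, -0.06 and 0.53 on day 1 arrays and 1.02, 2.25 and 1.02 on day 0 arrays. It was lower than on day 0 by -1.38 on both day 5 (adjusted p = 0.00452) and day 1 (adjusted p = 0.00647). Its highest control was again day 0 replicate 4. Over the 24 podocyte genes with a passing probe, of 26 listed, 9 had all 3 day 5 arrays above day 1 and 0 below. Over all genes the shares were 8.22% and 7.13%. None was called between the days, and the median difference was 0.27. Against day 0, 4 were higher and 6 lower on day 5, beside 20.9% and 23.4% of all genes. Scaled to the median, 12 were higher and 3 lower, beside 9581 and 3062 of all 23183 genes. Scaled to reference genes, 0 were higher and 8 lower, beside 1547 and 8494.

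Complement and growth factor genes held members of both kinds, and none was called between the days. C5ar1, the receptor for the leukocyte attractant C5a, read -1.98, -1.99 and -0.34 on day 5 arrays, against 0.25, 0.19 and -0.24 on day 1 arrays and -2.06, -3.34 and -3.83 on day 0 arrays. It was higher than on day 0 by 1.64 on day 5 (adjusted p = 0.0155) and 3.14 on day 1 (adjusted p = 0.0016). Of 20 complement genes, 17 had a passing probe. On day 5, 8 were higher and 1 lower than on day 0, beside 20.9% and 23.4% of all genes. On day 1, 8 were higher and 2 lower, beside 19.2% and 20.7%. Scaled to reference genes, 2 were higher on day 5 and 7 on day 1, beside 1547 and 1314 of all 23183 genes. The median difference between the days was -0.43. Hmox1, the heme-degrading enzyme induced by red cell debris and oxidants, read -1.48, -1.24 and 1.44 on day 5 arrays, against 0.74, 0.41 and 0.18 on day 1 arrays and -2.04, -2.52 and -2.56 on day 0 arrays. On both antibody days all its arrays lay above the day 0 arrays.

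Among growth factors, Igfbp3, a carrier of insulin-like growth factors, read 1.59, 1.29 and 2.78 on day 5 arrays, against 1.78, 0.54 and -1.07 on day 1 arrays and 1.68, 2.10 and 2.76 on day 0 arrays. It was lower than on day 0 on day 1 (-1.76, adjusted p = 0.0221) and not called on day 5 (-0.30, adjusted p = 0.678). Of 26 listed growth factors and receptors, 24 had a passing probe. On day 5, 4 were higher and 3 lower than on day 0, beside 20.9% and 23.4% of all genes. On day 1, 6 were higher and 5 lower, beside 19.2% and 20.7%. By scaling, 2 to 6 were lower on day 5 and 2 to 7 on day 1, beside 3062 to 8494 and 2958 to 8185 of all 23183 genes. Of the 5 day 1 losses, 1 was still lower on day 5, beside 85.6% of all day 1 losses. The median share undone of these 5 was 83.27%. Nid1, a basement membrane protein that links laminin to collagen IV, read 0.44, 1.38 and 2.18 on day 5 arrays, against 0.56, -0.06 and 0.17 on day 1 arrays and 0.93, 1.75 and 1.20 on day 0 arrays. It too was lower than on day 0 on day 1 (-1.07, adjusted p = 0.0274) and not called on day 5 (0.04, adjusted p = 0.934).

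Some of the largest day 1 gains were also present on day 5. Chek1, a kinase of the DNA damage checkpoint, read -3.81, -3.19 and -1.46 on day 5 arrays, against -2.20, -1.99 and -2.26 on day 1 arrays, and was not well above background on any day 0 array. It was at least 3.52-fold higher on day 5 (adjusted p = 0.000965) and at least 5.61-fold higher on day 1 than on day 0 (adjusted p = 0.00102). Xcl1, a chemokine of activated T and NK cells, read -3.59, -3.50 and -1.39 on day 5 arrays, against -2.33, -2.36 and -2.81 on day 1 arrays, and was likewise dim on day 0. It was at least 3.51-fold higher than on day 0 on day 5 and at least 4.40-fold higher on day 1.

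Genes of oxidative phosphorylation, the mitochondrial respiratory chain and ATP synthase, depended on the scaling. Of 30 listed and measured, 17 were higher than on day 0 on day 5 and 20 on day 1, beside 20.9% and 19.2% of all genes. Scaled to reference genes 3 were higher on day 5 and 2 on day 1, beside 1547 and 1314 of all 23183 genes. After quantile normalization 2 were higher on day 5 and 4 on day 1, beside 4810 and 4361. Between day 5 and day 1 their median difference was 0.06, and none was called. For glycolysis genes it was 0, with 16 of 17 listed measured and none called. Pfkl, the liver-type phosphofructokinase, was lower than on day 0 by -2.48 on day 5 (adjusted p = 0.000787) and -1.83 on day 1 (adjusted p = 0.00356).

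Across all genes, 4810 were called lower on day 1 than on day 0 and 4454 higher. Of the 4810 losses, 19 were called higher on day 5 than on day 1, and 13 of these were not called against day 0 on day 5, 5 were higher than day 0 and 1 was lower. The larger class, 4115 losses (85.6%), was not called as moved back and was still lower than day 0 on day 5; 1 loss moved further, and 675 were called neither way. Of the 4454 gains, 5 were called as moved back, 3378 (75.8%) were still higher than day 0, and 1071 were called neither way. The 3 comparisons share arrays, so these classes are not independent of each other.

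The share of a day 1 change that was undone by day 5 was described for changes of at least 2-fold, as the day 5 minus day 1 difference, with its sign turned, over the day 1 minus day 0 difference. A gene back at its day 0 level has 100%, and a gene that moved further from it has a negative share. Of 3028 such losses, 2660 (87.8%) had under 25% undone, 298 had 25 to 75% and 70 had over 75%. Their median was -8.52%, a sign that rested on 1 array: it was 10.9% without day 1 replicate 5. It was -0.4% without day 5 replicate 5 and -22.9% with slide as a block. Of 1166 gains, 570 had under 25% undone, 506 had 25 to 75% and 90 had over 75%, with a median of 26.29%. The gains' median depended on the processing: it was 0.9% scaled to the array median, 50% scaled to reference genes, 40.4% without day 5 replicate 5 and -10% with slide as a block. The share of gains under 25% undone was 76.9% scaled to the array median and 23.4% scaled to reference genes. By day 5 replicates 2, 4 and 5 the median was -13.82, 12.53 and -22.8% for losses and 36.54, 35.45 and 4.84% for gains. Replicate 5 thus gave the lowest share for both. Without day 0 replicate 4, 1515 losses and 560 gains of at least 2-fold were counted, against 3028 and 1166 with it. Within lists the share was taken over all called losses or gains, also those under 2-fold. There the median was 110.8% undone for the 7 mesangial losses. For the 13 macrophage gains it was 57.8%, and for the 9 fatty acid losses it was 2.17%. These shares use the mean of the day 5 arrays, which for the macrophage list read 0.09, -0.12 and 2.38 and so were split. The losses and gains were also picked by calls that use the same day 1 arrays as the share.

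**Figure D5:**
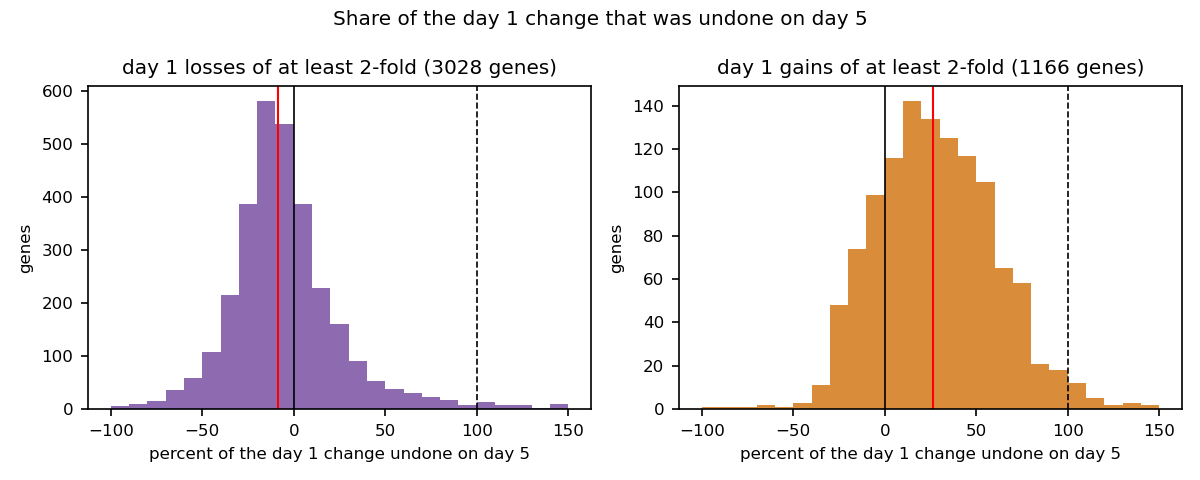
Share of the day 1 change undone by day 5 (percent, x axis) against the number of genes (y axis), for 3028 losses and 1166 gains of at least 2-fold; values outside the axis are added to its end bins, the solid black line is at 0, the dashed line at 100 and the red line is the median. The losses centre at -8.52% and the gains at 26.29%.

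The lasting losses and gains rest on the comparison with the day 0 arrays, all of which were on slide 1, and cannot be told apart from a difference between slides for day 5. With slide as a block, 103 genes were called between day 5 and day 0, and 51 of 2619 losses and 28 of 1486 gains were still called on day 5. Day 1 replicate 1 shared slide 1 with the controls, and there 3027 of the 3028 large losses and 1165 of the 1166 large gains had their day 1 direction, although that array is 1 of the 3 that defined them. Scaling also moved the split of calls. Against day 0, 47.2% of the day 5 calls and 48.1% of the day 1 calls were higher. Scaled to the array median the shares were 75.8% on day 5 and 73.6% on day 1, and scaled to 12 reference genes 15.4% and 13.8%, as the median of all genes moved to 0.49 and 0.391 and to -0.347 and -0.345. Between day 5 and day 1, where 75% of calls were higher, the share was 81.1% scaled to the median, 77.4% scaled to reference genes and 88.9% of 9 calls after quantile normalization, and no scaling moved the median of all genes past 0.074. It was 50% of 20 calls with no filter on dim probes, 36.8% of 57 without day 5 replicate 5 and 33.3% of 27 with slide as a block.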

How the data were processed

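Intensities are the scanner's gProcessedSignal of Agilent Feature Extraction 10.7.3.1, background-subtracted by the authors' scanner software per the file headers. The authors' deposited log2 value table was used only as an alternative; how it was normalized is not stated in the labels. Levels are log2 of each intensity minus log2 of the 75th percentile of that array's ControlType 0 spots. Control and outlier-flagged spots (80 to 142 per array) were left out, and no spot was saturated. A probe passed if well above background on all 3 arrays of at least 1 day, and the brightest probe stood for a gene. Genes dim on day 0 were thus tested only where another day was bright. limma 3.58.1 in R 4.3.3 fitted 6 day groups over 18 arrays, with Benjamini-Hochberg adjustment over 23183 genes, of which 12277 had a current symbol. The number of arrays limits the precision. On simulated data of these genes 64, 88, 94 and 100% of changes of log2 1, 2, 3 and 4 were recovered, with 10 false calls. The simulated arrays were independent, without a slide effect or an array that stood apart. These shares therefore do not say how many real changes were missed.

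Genes were named by rule: the 8 largest calls in each direction, the 5 largest day 1 changes per class, the 3 members of each list that moved most, and a marker panel; 1 gene that the rule names is not reported here. Members and lists were chosen with earlier results of these data known. The 24 alternatives varied scaling, background, filter, probes, slide and arrays left out.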

Additional observations from a re-analysis of the deposited data

How the results depend on the processing

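None of the 28 genes called between day 5 and day 1 reversed. Differences of uncalled genes and list medians near 0 did change sign: the mitosis median was -0.45 without day 5 replicate 5 against 0.44 as reported, the contractile median -0.18 without it against 0.11, the proximal tubule median 0.08 without it against -0.30, and the lymphocyte median 0.56 with slide as a fixed block against -0.31. Over single genes and list medians, 356 results lost their call and 7 gained one, 11 medians moved past the spread, and 1387 did none of these. In the order genes called between day 5 and day 1, losses called back and gains called back, the counts were 28, 19 and 5 as reported. They were 9, 7 and 1 after quantile normalization, 46, 32 and 9 with an intensity trend in eBayes, 52, 33 and 11 with slide as a random block (within-slide correlation -0.029), and 1, 1 and 0 in a fit of the 2 groups alone. With slide as a fixed block 0 losses and 1 gain were called back, and 4105 genes were called on day 1 and 103 on day 5 against day 0. The 2 groups alone gave 3305 and 4816 such calls, against 9264 and 10263 as reported. Normexp background correction gave 29 and 56, and 0 between day 5 and day 1 by limma, where 212 had an unadjusted p under 0.05. Some spots of the arrays had a local background near saturation; with it capped, an alternative added after seeing the data, 14 gains were called back. No filter on dim probes gave 9 losses and 8 gains back, probes above background on all 12 arrays of the scan day 3 gains, and a fit of those 12 arrays 3 gains. The authors' deposited table gave 6 genes between day 5 and day 1.

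With the replicate number as a block (replicate block) 1 gene was called between day 5 and day 1, with 1 loss and 0 gains back. Same-numbered day 5 and day 1 arrays deviated with correlations of -0.377 (replicate 4) and -0.205 (replicate 5). With day 0 arrays the correlations ran from -0.322 (day 1 replicate 5) to 0.263 (day 5 replicate 4). With so few arrays these values cannot show whether the numbers pair the samples. Leaving out 1 array gave 4 to 57 genes between day 5 and day 1, 4 to 17 losses back and 0 to 33 gains back. The lowest count of genes was without day 1 replicate 4 and the highest without day 5 replicate 5. It was 18 without day 5 replicate 2, 6 without day 5 replicate 4, 18 without day 1 replicate 1, 10 without day 1 replicate 5 and 8 without day 0 replicate 5. Against day 0 it gave 4616 to 9642 genes on day 1 and 6515 to 10565 on day 5, both lowest without day 0 replicate 4. On day 1 it was 5390 without day 1 replicate 1 and 4890 without day 1 replicate 4. The number of arrays, the slide layout and probes dim on day 1 limit these values.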
